A study of Mus musculus with 3 samples.

Results

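The receptor pathway of interleukin (IL)-4 and IL-13 was examined in the distal colon of mice with and without dextran sulfate sodium (DSS) colitis. It was defined as 10 genes, taken by name: the receptor chains Il4ra, Il13ra1, Il13ra2 and Il2rg, the signal transducers Stat6, Jak1, Jak3 and Tyk2, and the ligands Il4 and Il13. A gene was measured where a probe set of the array carried its symbol alone, which held for 8 of the 10 genes, among 19938 genes measured in this way. Il2rg was not analysed here, since no named probe set lists it. The 1 probe set that lists Jak3 also lists Insl3, and its log2 signals of 5.84, 5.86 and 5.84 on the 3 arrays can be assigned to neither gene.

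The study used male BALB/c mice aged 10 to 12 weeks, and the knockout mice carried the Il4ra tm1Sz allele in every cell and were littermates of the wild-type (WT) mice from crosses of heterozygous parents. WT normal mice drank water, and WT colitis and IL-4Rα-/- colitis mice drank 3% DSS, a polymer that injures the colonic epithelium, until tissue was taken on day 7. RNA was pooled from 4 mice for WT normal, 3 mice for WT colitis and 6 mice for IL-4Rα-/- colitis, and each pool was measured on 1 array, a GeneChip Mouse Gene 1.0 ST. The third pool is called knockout colitis below, and 3 signals in a row follow the order WT normal, then WT colitis, then knockout colitis. With 1 array per group there is no replicate error, so no difference below has a test or a p-value. Untreated IL-4Rα-/- colon was not analysed here, and the disease activity index of the pooled mice was 0 in WT normal and ranged from 3 to 4 in WT colitis and from 0 to 3 in IL-4Rα-/- colitis. Effects of the genotype and of the severity of colitis therefore cannot be told apart in the comparison of these arrays.

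IL-4 and IL-13 are the signature cytokines of type 2 immunity. IL-4 binds IL-4Rα, which then pairs with the common gamma chain on blood-derived cells or with IL-13Rα1 on epithelial, stromal and myeloid cells, and IL-13 uses the pair of IL-4Rα and IL-13Rα1. The chains carry the kinases JAK1, JAK3 and TYK2, which phosphorylate the transcription factor STAT6. In the intestine this route is known for its effects on goblet cells, mast cells and macrophages.

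Signals are given on the log2 scale as deposited, so that a difference of 1 is 2-fold. As a guide to background, the probe sets of odorant-sensing receptors (olfactory and vomeronasal, 1210 in all), which colon should lack, had a 95th percentile of 3.50. Over all genes, 231 (1.16%) were more than 2-fold higher in WT colitis relative to WT normal and 91 (0.456%) were lower. With an offset of 32 added on the linear scale, which shrinks differences of dim genes, these counts were 81 and 58. In knockout colitis, 54 genes (0.271%) exceeded WT colitis by more than 2-fold and 181 (0.908%) were lower. Counting differences of any size, 7130 of the 19938 genes were higher in WT colitis relative to WT normal. In knockout colitis, 7432 (37.3%) were lower than in WT colitis by any amount and 52.3% were equal. Of the 12233 genes above the guide on all 3 arrays, 34.5% had the same deposited value on all of them, and in another 22.9% WT normal and knockout colitis were equal while WT colitis differed. Equal values are thus common in this table and do not show that a gene was equally expressed.

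Il4ra, the targeted gene, differed most between the arrays among the 8 measured genes. Its log2 signal was 5.69 (WT normal), 6.63 (WT colitis) and 4.76 (knockout colitis). It was 1.92-fold higher in WT colitis relative to WT normal and 3.66-fold lower in knockout colitis than in WT colitis, and its signal in knockout colitis was also 1.91-fold below WT normal. With the offset of 32, the difference between knockout and WT colitis was 2.22-fold. The array labelled as the knockout thus had the lowest signal. Its signal in knockout colitis stayed above the background guide. Which exons the probe set covers, relative to the part removed by the allele, was not known here, so the remaining signal is no measure of intact receptor transcript. Among all genes, 34 had a more negative difference between knockout colitis and WT colitis than the -1.87 of Il4ra, 259 had a larger increase in WT colitis, and 81 were further below WT normal in knockout colitis. Il4ra was the only member past 2-fold in any comparison, 1 of 8 lower in knockout colitis than in WT colitis against the 0.908% of all genes given above.

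The start of Il4ra is shown because the loss of this gene defines the knockout. Its window of 250 bases before to 50 after the RefSeq start (GRCm38.p6, chr7:125552021-125552320, plus strand) is given 5′ to 3′ in lower case, without capitals since neither STAT motif searched below occurs in it.
Il4ra: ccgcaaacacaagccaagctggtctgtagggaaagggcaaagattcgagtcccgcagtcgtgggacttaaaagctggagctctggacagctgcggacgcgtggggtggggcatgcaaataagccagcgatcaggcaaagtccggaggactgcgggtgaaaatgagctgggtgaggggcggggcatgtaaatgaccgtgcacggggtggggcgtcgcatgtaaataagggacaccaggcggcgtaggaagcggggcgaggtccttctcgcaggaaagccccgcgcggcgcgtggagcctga
The window was 62% G or C and held 25 CpG dinucleotides, against medians of 52.7% and 7 over 32851 promoter windows of the same length.

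**Figure D1:**
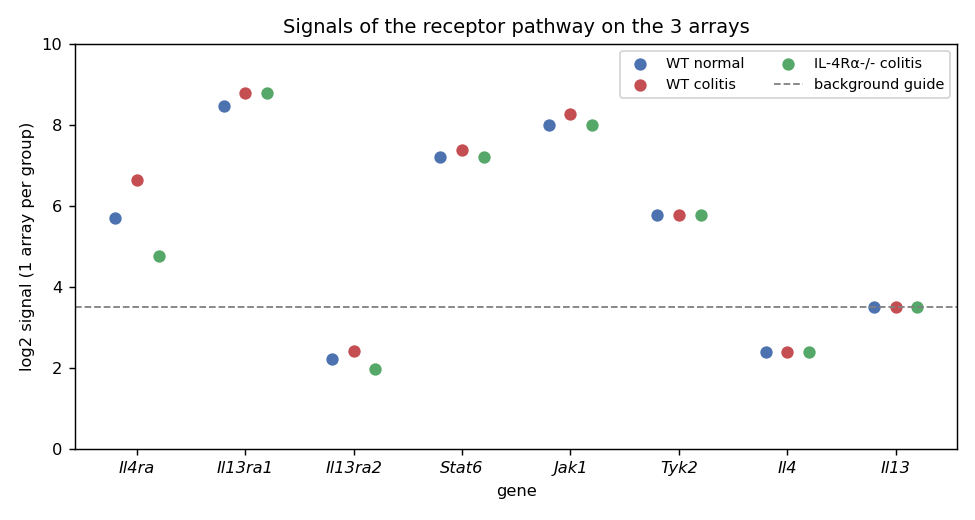
Log2 signal (y axis) of the 8 measured genes of the pathway (x axis) for each of the 3 pools, 1 point per pool, with a dashed line at the background guide of 3.50. Il4ra spans 4.76 to 6.63, whereas Tyk2, Il4 and Il13 have the same value on all 3 arrays, and Il13ra2, Il4 and Il13 lie at or below the guide.

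Of the other receptor chains, Il13ra1 encodes the partner of IL-4Rα that binds IL-13. Its log2 signal was 8.46 (WT normal), 8.79 (WT colitis) and 8.80 (knockout colitis). Both colitis arrays were thus above WT normal, by 0.33 and 0.34, and differed from each other by 0.01. The difference between knockout colitis and WT normal, 1.27-fold, was exceeded in the same direction by 549 genes, while 2043 genes had a larger increase in WT colitis. Il13ra1 was the only member whose signal in knockout colitis exceeded that in WT normal. Il13ra2 encodes a chain that binds IL-13 with high affinity and is known mainly as a decoy. Its signals of 2.22, 2.41 and 1.97 were below the background guide on every array, so no fold is given and its order between arrays has no meaning here.

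The kinases and STAT6 differed little. Stat6, the transcription factor that carries the signal to the nucleus, had a log2 signal of 7.20 (WT normal), 7.38 (WT colitis) and 7.20 (knockout colitis). Jak1, the kinase bound to IL-4Rα, had 8.01, 8.27 and 8.01. In both genes WT colitis was the highest, 1.13-fold for Stat6 and 1.20-fold for Jak1, and the other arrays had equal values, the pattern of 22.9% of genes above the guide. Tyk2, the kinase associated with IL-13Rα1, had 5.78 on each array. Between WT colitis and WT normal, 3321 genes had a larger difference in size than Jak1 and 4574 a larger one than Stat6.

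The ligands themselves were not detected above background. Il4 had a log2 signal of 2.38 and Il13 of 3.50 on each of the 3 arrays, the first below the guide and the second equal to it. A change in either cytokine could not be seen at this sensitivity. Cytokine transcripts come from few cells of a tissue, and in RNA from whole colon fewer cells of a type and less RNA per cell cannot be told apart. Genes of the lymphocytes that make these cytokines were in part near background as well. Of 8 measured genes on a list for type 2 lymphocytes, Ccr4, Ccr8, Klrg1 and Il5 were at or below the guide on all arrays, and the summed linear signal of the list was 103 (WT normal), 115 (WT colitis) and 101 (knockout colitis). Gata3, their defining transcription factor, had 4.18 on each array.

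**Figure D2:**
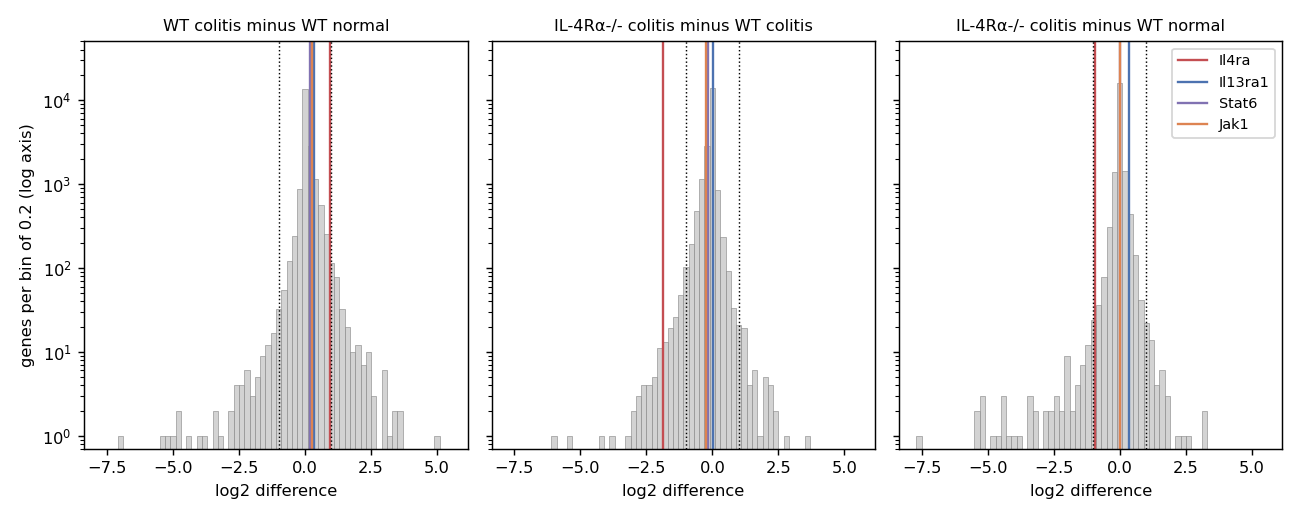
Number of genes (y axis, log scale) by log2 difference (x axis, bins of 0.2) for the 3 pairs of arrays over 19938 genes, with coloured lines at 4 members and dotted lines at 2-fold. Il4ra lies at 0.94, -1.87 and -0.93, Il13ra1 at 0.33, 0.01 and 0.34, and Stat6 and Jak1 close to 0, where their lines coincide in the right panel.

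Compared with WT normal, 0 of the 8 members were more than 2-fold higher or lower in WT colitis, and 0 in knockout colitis. In the latter comparison 37 genes (0.186%) were higher and 67 (0.336%) lower over all genes. The median difference of the members was 0.18 between WT colitis and WT normal, taken as colitis minus normal, -0.09 for knockout colitis minus WT colitis and 0.00 for knockout colitis minus WT normal, against 0.00 for all genes in each. These comparisons share arrays, so a value on the WT colitis array enters the first 2 with opposite sign.

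Summed markers of leukocytes and of fibroblasts were highest in WT colitis, as Il4ra was, whereas those of epithelium were lowest there. All 10 genes on a list of leukocyte markers were higher in WT colitis relative to WT normal, by 0.25 to 0.63, and lower in knockout colitis than in WT colitis, with medians of 0.45 and -0.43. Of all 19938 genes, 7130 were higher in the first comparison and 7432 lower in the second. The summed linear signal of these 10 genes was 825 (WT normal), 1168 (WT colitis) and 837 (knockout colitis). Unlike Il4ra, the list had a median difference of 0.00 between knockout colitis and WT normal, with differences from -0.16 to 0.17. In that comparison 6 of the 10 genes had equal values, as had 65.8% of all genes, so equal values set this median. Of 12 fibroblast markers, 2 were more than 2-fold higher in WT colitis and 3 more than 2-fold lower in knockout colitis than in WT colitis, and their summed signal was 2592, 4717 and 2465. Of these markers Fap alone was at or below the guide on all arrays. The summed signal of 14 epithelial markers was 32790, 29984 and 31073, and none of them was at or below the guide on all arrays. Single genes were mixed, with 9 lower, 4 higher and 1 equal in WT colitis relative to WT normal. In knockout colitis 8 were higher than in WT colitis, 4 lower and 2 equal. Over all genes, 2383 were lower in the first comparison and 2074 higher in the second. Of 9 T cell markers, 3 were lower in knockout colitis than in WT colitis, 2 higher and 4 equal, with a median of 0.00. The part of these cell populations in the values of Il4ra was not tested.

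The genes whose 3 signals, each centred on the mean of the gene, lay nearest to those of Il4ra were Oas2 (Euclidean distance 0.0245), Rsad2 (0.128), Thbs1 (0.163), Usp18 (0.176) and Ccl11 (0.202), from 12600 genes above the guide on at least 1 array. Oas2, Rsad2 and Usp18 are interferon-stimulated genes, Thbs1 encodes the matrix protein thrombospondin 1, and Ccl11 the eosinophil attractant eotaxin. Oas2 had a log2 signal of 6.74 (WT normal), 7.68 (WT colitis) and 5.84 (knockout colitis), and Ccl11 had 6.97, 7.82 and 6.23. In all of them WT colitis was highest and knockout colitis lowest, which follows from picking them by their likeness to Il4ra. A likeness over 3 arrays is a weak measure, and 849 of the 12600 genes were above WT normal in WT colitis and below it in knockout colitis. Differences at least as large as those of Il4ra in both directions were seen in 4 genes, Il4ra itself, Itln1, Ptgs2 and an immunoglobulin kappa variable gene, a criterion set after the values of Il4ra were known.

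**Figure D3:**
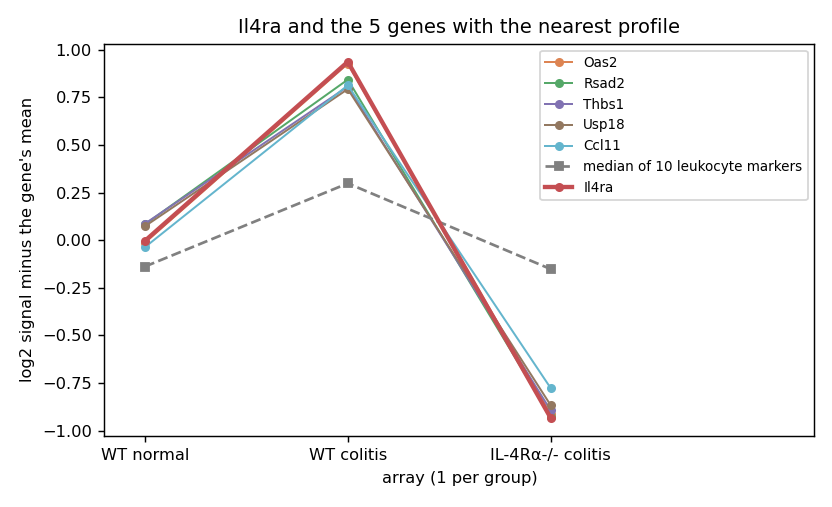
Log2 signal minus the mean of the gene over the 3 arrays (y axis) on each array (x axis) for Il4ra, the 5 genes with the nearest profile and the median of 10 leukocyte markers. The line of Oas2 is hidden under that of Il4ra. The leukocyte median ends near its level in WT normal, and 6 of the 10 markers had equal values on those arrays. Il4ra and the 5 genes, picked for their likeness to it, end lower than in WT normal.

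Around the receptor, 107 of 115 genes on 8 lists of the pathway and its targets were measured. Of these, 6 were more than 2-fold higher and 2 lower in WT colitis relative to WT normal, and 0 were higher and 8 lower in knockout colitis than in WT colitis. Compared with WT normal, 3 were higher and 5 lower in knockout colitis. Over all genes, the shares higher and lower in these 3 comparisons were 1.16% and 0.456%, 0.271% and 0.908%, and 0.186% and 0.336%. The 8 genes lower in knockout colitis than in WT colitis came from the lists of target genes, 7 of 16 in epithelium, mast cells and stroma and 1 of 17 in leukocytes. In the lists for upstream cytokines, receptors, kinases, inhibitors, adaptors and STAT6 partners, 0 genes passed 2-fold in that comparison. The lists were drawn up with earlier results of these arrays known, so this split between lists is no independent evidence.

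Upstream of the pathway, 15 genes for type 2 cytokines, the epithelial alarmins and their receptors were measured, and 7 of them were at or below the guide on all arrays. The alarmins Il25 and Tslp, which call type 2 lymphocytes into action, had the same log2 signal of 3.21 and 2.20 on each array. Il33, another alarmin, had 4.03 (WT normal), 4.28 (WT colitis) and 4.03 (knockout colitis). Crlf2, a chain of the TSLP receptor, had 5.27 throughout. Differences in this list ran from -0.14 to 0.48 from WT normal to WT colitis and from -0.39 to 0.00 for knockout colitis minus WT colitis, with Il7r, which encodes the IL-7 receptor and a chain of the TSLP receptor, at the far end of both. Of 10 genes that partner the common gamma chain or encode their cytokines, 4 were at or below the guide and 0 passed 2-fold. Il15ra had 5.11, 5.45 and 5.11, whereas Il2rb had 3.83 on each array.

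The other JAKs and STATs were all above the guide. Of 6 measured, 5 had a lower signal in knockout colitis than in WT colitis and 1 was equal, with a median difference of -0.24. Over all genes, 37.3% were lower in that comparison and 52.3% equal. Jak2, the kinase of many cytokine receptors, had 6.73, 7.14 and 6.98, and so stayed above WT normal in both colitis pools. Stat2, which acts in interferon signalling, had 7.37, 7.46 and 6.94, and Stat3 had 8.88, 8.93 and 8.70. In these the knockout colitis array was the lowest. Stat5b had 5.25 on each array.

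Inhibitors of the pathway showed 1 gene past 2-fold. Of 20 measured, 1 was higher in WT colitis relative to WT normal and 0 were lower. It was Socs3, a feedback inhibitor of JAK signalling best known downstream of the IL-6 family, with a log2 signal of 5.15 (WT normal), 6.48 (WT colitis) and 5.57 (knockout colitis). Its brighter probe set was thus 2.51-fold higher in WT colitis, but its other probe set had 3.41 on all arrays, below the guide, and with the offset of 32 the difference was 1.80-fold. Socs1, the inhibitor most tied to STAT6, had 4.84, 4.84 and 4.56. Cish, which is induced by STAT proteins, had 4.94, 4.49 and 4.25, falling in order from WT normal to knockout colitis, by less than 2-fold in all. In knockout colitis, 14 of the 20 inhibitors had a lower signal than in WT colitis and 6 an equal one, with a median difference of -0.15. Over all genes, 37.3% were lower in that comparison and 52.3% equal. The median of the inhibitors was -0.06 under quantile normalization and -0.08 with arrays centred on their medians.

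Adaptors and the PI3K arm link the receptor to metabolism and growth. Of 15 measured genes 0 passed 2-fold, and the largest difference was that of Pik3r1, the regulatory subunit of PI3K, with 7.56, 8.34 and 7.94. Irs2, the docking protein recruited by IL-4Rα, had 6.17, 6.34 and 6.17. Among 10 partners of STAT6, the median was 0.38 from WT normal to WT colitis and -0.27 for knockout colitis minus WT colitis, and 0 passed 2-fold. Irf4, a transcription factor of lymphocytes and of alternatively activated macrophages, had 4.67 in WT normal and 5.28 on both colitis arrays. Parp14, a cofactor of STAT6 that also responds to interferon, had 7.17, 7.75 and 7.22, and Spi1, the master factor of myeloid cells, had 5.27, 5.87 and 5.30.

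**Figure D4:**
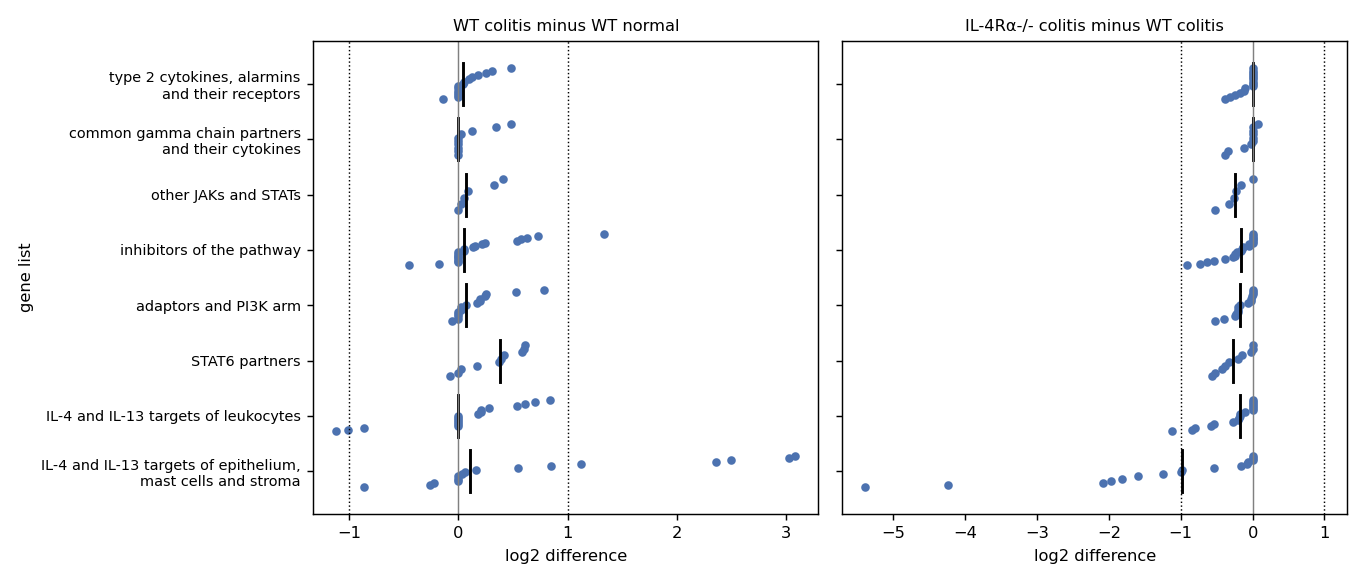
Log2 difference (x axis) of each measured gene of 8 lists (y axis, 1 point per gene, short black bar at the median) for WT colitis minus WT normal (left) and IL-4Rα-/- colitis minus WT colitis (right), with dotted lines at 2-fold. Points beyond the dotted line on the right belong to the lists of target genes, with Itln1 at -5.39 and Ang4 at -4.24.

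Target genes were described on lists drawn up with earlier results of these arrays known, so their counts are no independent evidence of a direction. In epithelium, mast cells and stroma, 5 of 16 genes were more than 2-fold higher in WT colitis relative to WT normal, and 7 were lower in knockout colitis than in WT colitis, with a median of -0.98. Itln1, a goblet and Paneth cell lectin, had 9.41 (WT normal), 10.53 (WT colitis) and 5.14 (knockout colitis). Ang4, an antimicrobial ribonuclease, had 9.50, 8.63 and 4.39. Both were thus far below WT normal as well, 19.3-fold for Itln1 and 34.5-fold for Ang4. Retnlb, a goblet cell protein induced by IL-13, and Clca1, a secreted regulator of mucus, had differences just under 2-fold between knockout colitis and WT colitis, -0.98 and -0.99. Clca1 was also below WT normal in knockout colitis, by more than 2-fold (log2 difference -1.21). Ccl11, with the signals given above, was past 2-fold between knockout and WT colitis (-1.59) and likewise lay below WT normal in knockout colitis (-0.74).
Mcpt1, Mcpt2, Vcam1 and Timp1 were instead above WT normal in knockout colitis. The mast cell proteases Mcpt1 (5.57, 8.60 and 6.78) and Mcpt2 (5.75, 8.84 and 6.87), whose sequences are so alike that their signals may be shared, and Vcam1 (4.98, 7.34 and 6.09), the adhesion molecule of activated vessels, were higher in WT colitis and were more than 2-fold above WT normal in knockout colitis as well. With the offset of 32 the latter differences were 1.78-fold for Mcpt1, 1.74-fold for Mcpt2 and 1.58-fold for Vcam1, and that of Vcam1 between knockout and WT colitis was 1.94-fold, all under the threshold. Timp1, an inhibitor of matrix proteases, had 3.56, 6.06 and 3.98. The summed signal of 11 mast cell markers was 313 (WT normal), 1209 (WT colitis) and 447 (knockout colitis), but Mcpt1 and Mcpt2 are among them. Without both, a choice made after the data were seen, the remaining 9 summed to 211, 363 and 220, or 1.72-fold higher in WT colitis relative to WT normal. The level of that sum is weighted to Kit, the brightest of the 9, with 7.19, 7.43 and 7.19, but Kit differed little between arrays. Cpa3, with the largest differences of the 9, had 3.50, 6.82 and 4.29. It was 9.99-fold higher in WT colitis relative to WT normal and 5.78-fold lower in knockout colitis than in WT colitis. Its WT normal signal was at the background guide, and these folds are given without the offset, which would shrink them. Fcer1a had 2.90, 4.07 and 3.03, above the guide in WT colitis alone. Of the 11, 3 genes, Ms4a2, Tpsab1 and Cma1, were at or below the guide on all arrays. The part of mast cell number in these values was not tested. Of 5 eosinophil markers, Prg2, Epx, Ccr3 and Il5ra were at or below the guide on every array.

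In leukocytes, 12 of 17 measured targets were above the guide on at least 1 array. The other 5, among them Arg1 (2.94 throughout) and Chil3, were at or below it on all arrays. Retnla, a secreted product of such macrophages, had a log2 signal of 5.72 (WT normal), 4.60 (WT colitis) and 3.80 (knockout colitis), 3.78-fold lower in knockout colitis than in WT normal. Fcer2a, the low-affinity IgE receptor of B cells, had 4.14, 4.75 and 3.63, 2.17-fold lower in knockout colitis than in WT colitis. Egr2 had 5.12, 4.11 and 3.92. All 3 genes had their lowest signal in knockout colitis. Retnla and Egr2 were already more than 2-fold lower in WT colitis relative to WT normal, whereas Fcer2a was higher there, by 0.61 on the log2 scale. None of these calls held with the offset of 32, where the folds were 1.51 and 1.84 for Retnla, 1.36 and 1.42 for Egr2, each in WT and then knockout colitis against WT normal, and 1.33 for Fcer2a between knockout and WT colitis. Mrc1, the mannose receptor, was 0.84 higher in WT colitis relative to WT normal and equal on the other arrays. Of 12 macrophage markers, Mrc1 included, 9 were higher in WT colitis than WT normal by any amount, against 7130 of all 19938 genes, and 3 were equal. Between knockout and WT colitis, 8 were lower, against 37.3% of all genes, 3 equal and Cd14 higher (5.75, 6.10 and 6.60 on the 3 arrays). Their summed signal was 1368, 1896 and 1346, of which Lyz2 was the brightest part (9.60, 10.12 and 9.47 on the log2 scale), and Ccr2 alone was at or below the guide on all arrays. Of 8 B and plasma cell markers, 7 were lower in knockout colitis than in WT colitis, against 37.3% of all genes, and 1 was equal. Their differences ran from -0.94 to 0.00 with a median of -0.52, beside the -1.12 of Fcer2a. The part of these cells in the values was not tested.

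Promoters were searched for the letters TTCNNNNGAA, the spacing preferred by STAT6, and TTCNNNGAA, that of other STATs. Each reads the same on both strands, and matches of both kinds may overlap in part. The first occurs in the windows of 8.01% and the second in those of 9.55% of 27025 genes. Of the 10 members, Il4 alone held either, 1 in each of its RefSeq start windows. In the leukocyte target list 6 of 13 genes with a window held TTCNNNNGAA: Retnla, Ccl17, Pdcd1lg2, Fcer2a, Cd36 and Clec7a. In the list of epithelium, mast cells and stroma, 0 of 10 did, and Ang4 alone held TTCNNNGAA. In the lists other than targets, shares with TTCNNNNGAA ran from 0% (common gamma chain) to 21.4% (type 2 cytokines, 3 of 14 genes). Those with TTCNNNGAA ran from 0% (STAT6 partners, other JAKs and STATs) to 27.3% (inhibitors, 3 of 11 genes). A match of letters is a description and not a binding site, and the absence of one in so short a window says nothing about the factor.

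The windows of Retnla (chr16:48842359-48842658, plus strand) and Fcer2a (chr8:3690812-3691111, minus strand) are shown as the leukocyte targets that were both past 2-fold as deposited and held the STAT6 spacing, and that of Ang4 (chr14:51773541-51773840, minus strand) as the strongly lower target with the other spacing, all from RefSeq on GRCm38.p6 and written 5′ to 3′ with the motif in capitals.
Retnla: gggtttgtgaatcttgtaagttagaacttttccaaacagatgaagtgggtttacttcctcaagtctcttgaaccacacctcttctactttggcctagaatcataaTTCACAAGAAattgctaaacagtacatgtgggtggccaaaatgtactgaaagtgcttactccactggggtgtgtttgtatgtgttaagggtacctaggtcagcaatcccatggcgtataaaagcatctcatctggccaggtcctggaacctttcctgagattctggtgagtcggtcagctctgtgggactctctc
Fcer2a: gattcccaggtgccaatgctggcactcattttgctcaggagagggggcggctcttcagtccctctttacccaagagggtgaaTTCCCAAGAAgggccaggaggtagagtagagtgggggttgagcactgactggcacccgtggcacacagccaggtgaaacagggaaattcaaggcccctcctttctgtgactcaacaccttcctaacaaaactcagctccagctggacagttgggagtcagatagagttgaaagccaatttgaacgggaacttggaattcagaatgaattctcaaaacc
Ang4: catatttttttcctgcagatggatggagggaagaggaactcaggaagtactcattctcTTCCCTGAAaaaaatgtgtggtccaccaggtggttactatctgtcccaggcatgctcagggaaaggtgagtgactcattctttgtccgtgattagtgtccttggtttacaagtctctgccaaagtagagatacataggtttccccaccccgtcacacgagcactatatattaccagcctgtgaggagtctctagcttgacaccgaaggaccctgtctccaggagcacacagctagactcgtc
The first base of the motif lies 145 bases before the start in Retnla, 168 in Fcer2a and 192 in Ang4.

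The upstream start window of Il4 (chr11:53618616-53618915, minus strand, GRCm38.p6) is shown as the one member with the STAT6 spacing, in capitals.
Il4: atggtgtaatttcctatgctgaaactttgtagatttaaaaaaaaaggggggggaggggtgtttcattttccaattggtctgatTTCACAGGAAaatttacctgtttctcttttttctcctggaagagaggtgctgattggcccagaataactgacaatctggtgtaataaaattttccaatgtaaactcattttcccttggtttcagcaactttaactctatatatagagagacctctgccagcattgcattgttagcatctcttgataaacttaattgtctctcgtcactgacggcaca
Members also differed in base composition at their starts. The 5 members above the guide on all arrays, Il4ra, Il13ra1, Stat6, Jak1 and Tyk2, had windows of 57.3% to 71.0% G or C with 8 to 29 CpG dinucleotides. The 4 windows of the 3 members at or below the guide, Il13ra2, Il4 and Il13, had 37.7% to 51.7% with 1 to 3. With 8 genes this is a description only. Il4 and Il13 lie next to each other on chromosome 11, and Il13ra1, Il13ra2 and Il2rg lie on the X chromosome.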

How the data were processed

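RNA of distal colon was pooled per group and measured on 3 arrays, 1 for each of the groups. The authors deposited log2 signals for 28944 probe sets, and the summary and normalization method and the genome build are not given in the sources used here. The methods name an Affymetrix GeneChip, whereas the labels describe a Cy3 labelling kit of another maker. Of the probe sets, 21789 had 1 gene symbol, 1621 had several and 5534 had none here, and 21698 of the first were matched to RefSeq by gene number. The probe set with the highest mean stood for a gene. Differences were taken between deposited values, without a test, and folds against a value below the background guide were computed against the guide. Named were all members, up to 6 genes of each list past 2-fold in a comparison and above the guide on an array, and the 5 genes nearest to Il4ra, with marker lists given as sums, and other genes were named after their values were seen. Members and lists were chosen with earlier results of these data known. The exocrine pancreas list, used as a check of the WT normal array, had a summed linear signal of 3179 (WT normal), 541 (WT colitis) and 168 (knockout colitis) over 7 genes. T cell markers (9 genes) summed to 238, 286 and 262, and B and plasma cell markers (8 genes) to 1757, 2470 and 2129. The alternatives were quantile normalization, centring on array medians, raising dim values to the guide, an offset of 32, averaging the probe sets of a gene and thresholds of 1.5-fold and 4-fold. Counting and profile steps were tested on simulated data. Python 3.11.15, numpy 2.4.6, pandas 2.3.3 and matplotlib 3.10.9 were used.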

Additional observations from a re-analysis of the deposited data

How the results depend on the processing

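Of 120 recomputed differences of members, 112 moved by less than the robust spread of all differing genes (0.18, 0.15 and 0.07 on the log2 scale in the 3 comparisons), and 8 moved by more. With an offset of 32, the difference of Il4ra was 0.65 for WT colitis minus WT normal, -1.15 for knockout colitis minus WT colitis and -0.50 for knockout colitis minus WT normal, each in the same direction. The other 5 of these 8 belonged to Il13ra2, which is below the guide. Many of the 112 could not have moved. Each measured member had 1 probe set, so averaging probe sets left its differences as they were. Raising dim values to the guide could not change members above it on all arrays, or Il4 and Il13, which had equal values. The count of 112 is therefore a weak check. At a 1.5-fold threshold, 1 member was higher in WT colitis relative to WT normal and 1 was lower in knockout colitis than in WT normal, and at 4-fold 0 were lower in knockout colitis than in WT colitis, where 1 was at 2-fold. By their construction, the thresholds change only counts. In the lists, 314 of 336 counts stayed within 1.5 times and all 120 medians within the spread. This is a weak check, since many of the counts were 0 throughout and many medians lay close to 0. Some medians changed sign, as for the inhibitors in WT colitis minus WT normal (0.05 as deposited, -0.07 under quantile normalization). When the probe sets of a gene were averaged, Socs3 no longer passed 2-fold. With an offset of 32, Socs3, Retnla, Egr2 and Fcer2a passed in no comparison and Vcam1 only between WT colitis and WT normal, and Mcpt1 and Mcpt2 no longer passed between knockout colitis and WT normal. The leukocyte targets lower then went from 2 to 0 for WT colitis against WT normal, from 1 to 0 for knockout against WT colitis and from 2 to 0 for knockout colitis against WT normal. Those of epithelium, mast cells and stroma went from 7 to 6 lower in knockout against WT colitis and from 3 to 0 higher in knockout colitis against WT normal. The offset also changed the counts over all genes to 34 higher and 73 lower for knockout colitis minus WT colitis (54 and 181 as deposited) and to 18 and 44 for knockout colitis minus WT normal (37 and 67). Centring adds 0.07 to each difference of knockout colitis minus WT colitis, so genes equal as deposited, such as Tyk2, then have 0.07. The 5 genes nearest to Il4ra were all shared under quantile normalization (5 of 5) and under the largest difference as the measure (5 of 5). One array per group limits precision, and Il4, Il13 and Il13ra2 are limited by background. The only difference of a member past 2-fold was that of Il4ra between knockout colitis and WT colitis. No alternative turned its direction, which only quantile normalization and centring could have done.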
